A study of Mus musculus with 40 samples.

Results

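The subject here is the H3K27ac mark at 9 mouse genes for adipokines, the hormone-like proteins that fat cells secrete: Adipoq, Lep, Retn, Cfd, Rbp4, Nampt, Angptl4, Apln and Nrg4. They were chosen by name from 21938 annotated protein-coding genes, with earlier results of these data known. Each was measured over its gene span plus 20 kb upstream. H3K27ac, acetylated lysine on the tail of histone H3, was mapped by ChIP-seq in preadipocytes of inguinal white fat, sampled at days 0, 3, 6 and 9 of differentiation in culture. WT mice were compared with DKO mice, which carry Hmgn1-/- and Hmgn2-/- and so lack both HMGN1 and HMGN2, nucleosome-binding proteins of chromatin.

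All mice were C57BL/6 of 8 to 12 weeks in both genotypes. Each of the 8 groups (2 genotypes at 4 days) held 3 libraries. Day 0 cells were preadipocytes and had received no inducers. After that both genotypes were given the same differentiation medium for 4 days, which held 1 μM rosiglitazone, 5 μM of the glucocorticoid dexamethasone, the phosphodiesterase inhibitor IBMX at 0.5 mM, the thyroid hormone T3 at 1 nM and insulin at 0.5 μg/ml. They were then kept in insulin with T3 alone. The labels do not say whether the 3 libraries of a group came from separate animals, so p-values measure the spread between these libraries.

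Adipokines carry information from fat to other organs. Adiponectin, leptin, resistin, adipsin, retinol binding protein 4 and neuregulin 4 act on insulin sensitivity, appetite, complement or lipid metabolism, and their genes are switched on late, as a preadipocyte becomes an adipocyte. H3K27ac lies on the nucleosomes that flank active promoters and enhancers, and wide stretches of it around a gene are typical of genes that define a cell type. A peak list records where the mark was called and not how much RNA was made.

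The measure used below is the length, in kb, that lies under called peaks in a gene's window. Beside it stand the fold enrichment of the window's strongest peak over its local background, and the place of that peak in its own library's list by q-value, as a percentile where 0 is the strongest peak of the library. The 24 lists held 47448 to 115923 peaks, covering 20.7 to 96.4 Mb. Number and length of peaks differed between genotypes over the whole genome. At day 6 the DKO lists covered 20.7 to 36.3 Mb against 55.5 to 60.4 Mb in WT, and at day 9 they covered 61.2 to 68.8 Mb against 48.2 to 59.6 Mb. DKO day 0 replicate 2 stood apart, with no peak narrower than 440 bp, where the narrowest peaks of the other libraries were 155 to 165 bp. WT day 3 replicate 3 also stood apart, with a background of 4.50 reads per kb where the other 23 libraries had 8.61 to 12.8, and a highest fold of 159 where the others reached 33.2 to 60.6. Within the Hmgn2 gene, peaks covered 0.781 to 1.80 kb in the 12 WT libraries and 0 kb in the 12 DKO libraries, whereas at Hmgn1 both genotypes had peaks (WT 0.562 to 1.35 kb, DKO 0.248 to 2.25 kb).

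The cells were checked by peaks within 1 kb of the start of marker genes. Of 10 adipocyte markers, 5 had such a peak in every day 0 library of both genotypes, and 8 in every day 6 and day 9 library. Cidec and Gpd1, a lipid droplet protein and an enzyme of glycerol metabolism, had one in 0 of 12 libraries of days 0 and 3 and in 12 of 12 of days 6 and 9. Of 10 preadipocyte markers, 5 (Pdgfra, Pdgfrb, Ly6a, Col1a1 and Thy1) had one in all 24 libraries, Dlk1 and Gata2 in none, Pi16 in 3, Dpp4 in 7 and Cd34 in 12. At day 0, 6 of 8 immune markers had a start peak in all 6 libraries, the pan-leukocyte gene Ptprc and the macrophage genes Adgre1 and Csf1r among them, so the day 0 cells were not free of marks typical of immune cells. Of the immune list, Cd3e and Cd79a of lymphocytes had none in any library. Of 4 endothelial markers, Tek had one in 23 libraries, Pecam1 in 13, Kdr in 9 and Cdh5 in 0. Of the liver genes Alb had none and Apoa1 one in 1 library, and of the muscle genes Myod1 and Myf5 had none and Acta1 one in 7 libraries. In such bulk samples, fewer cells of a type and less mark per cell cannot be told apart.

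The regions that the results turn on are shown here as sequence. Peaks sharing 1 bp or more, from any of the 24 lists, formed a region, and 95 of these fell in the 9 windows. Each stretch is 300 bases around the median summit of a region, on the forward strand of GRCm38, the assembly of mm10, from the RefSeq genome. The Retn, Nampt and Angptl4 regions at -8.51, +1.48 and +0.852 kb from the gene start had the highest median -log10 q of the regions of their window that were called in at least 12 libraries. The Adipoq region inside intron sequence at +0.576 kb, the Retn region at its start and the Nrg4 region 80.0 kb into the gene were picked after their values were seen, since they gained peaks with day or were called in a single genotype. Capitals mark letters that match a motif.

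Retn, chr8:3647111-3647410: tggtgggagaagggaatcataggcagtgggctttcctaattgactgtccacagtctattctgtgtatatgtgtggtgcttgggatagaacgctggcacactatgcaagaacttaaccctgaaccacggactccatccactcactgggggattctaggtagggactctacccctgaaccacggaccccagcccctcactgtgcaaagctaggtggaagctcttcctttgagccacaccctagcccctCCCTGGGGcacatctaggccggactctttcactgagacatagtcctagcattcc
Retn, chr8:3655342-3655641: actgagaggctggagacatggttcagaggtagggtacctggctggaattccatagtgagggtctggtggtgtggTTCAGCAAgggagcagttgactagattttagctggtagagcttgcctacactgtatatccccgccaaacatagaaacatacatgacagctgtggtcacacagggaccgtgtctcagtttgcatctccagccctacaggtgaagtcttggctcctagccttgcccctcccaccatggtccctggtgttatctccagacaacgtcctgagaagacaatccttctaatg
Adipoq, chr16:23146962-23147261: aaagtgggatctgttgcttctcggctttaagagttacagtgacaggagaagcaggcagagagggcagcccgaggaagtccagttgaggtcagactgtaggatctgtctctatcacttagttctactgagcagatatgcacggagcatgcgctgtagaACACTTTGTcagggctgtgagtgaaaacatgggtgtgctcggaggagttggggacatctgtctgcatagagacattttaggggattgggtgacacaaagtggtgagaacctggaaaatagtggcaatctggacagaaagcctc
Nampt, chr12:32820870-32821169: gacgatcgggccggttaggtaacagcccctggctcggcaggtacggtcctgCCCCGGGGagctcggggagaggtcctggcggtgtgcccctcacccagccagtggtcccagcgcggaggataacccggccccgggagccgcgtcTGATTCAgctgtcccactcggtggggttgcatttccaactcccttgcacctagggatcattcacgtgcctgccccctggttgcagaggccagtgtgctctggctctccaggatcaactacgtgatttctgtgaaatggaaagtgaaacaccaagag
Angptl4, chr17:33780828-33781127: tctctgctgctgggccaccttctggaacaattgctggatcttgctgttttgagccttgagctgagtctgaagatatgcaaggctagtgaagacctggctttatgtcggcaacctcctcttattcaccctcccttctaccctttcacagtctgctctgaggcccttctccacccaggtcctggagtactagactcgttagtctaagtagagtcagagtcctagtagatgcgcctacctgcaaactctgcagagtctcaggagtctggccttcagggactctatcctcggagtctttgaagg
Nrg4, chr9:55246734-55247033: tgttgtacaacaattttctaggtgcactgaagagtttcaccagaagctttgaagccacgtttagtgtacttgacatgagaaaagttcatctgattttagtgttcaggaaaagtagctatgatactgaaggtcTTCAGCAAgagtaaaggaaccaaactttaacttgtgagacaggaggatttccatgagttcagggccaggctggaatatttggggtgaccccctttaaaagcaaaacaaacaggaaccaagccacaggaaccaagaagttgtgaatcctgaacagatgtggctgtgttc

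The letters searched, on both strands, were TGANTCA for AP-1, TTGCNNAA for C/EBP, ACANNNTGT for the glucocorticoid receptor, CCCNNGGG for EBF, and for PPAR a pair of AGGNCA in the same direction with 1 base between. Dexamethasone acts on the glucocorticoid receptor, rosiglitazone on PPARγ, and C/EBP and EBF proteins are regulators of fat cell differentiation. The C/EBP letters stood once in the Retn start region and in the Nrg4 region at 80.0 kb. The EBF letters stood in the upstream Retn region and in the Nampt region, which also held the AP-1 letters. The Adipoq region held the glucocorticoid receptor letters, and the Angptl4 region held none of the 5 motifs. Over 22 regions of these windows (the 21 called in at least 12 libraries and the Nrg4 region), C/EBP letters were in 4, EBF in 4, glucocorticoid receptor in 2, AP-1 in 1 and PPAR in 0. Among 42153 windows of the same length around all regions called in at least 12 libraries, the shares were 10.8%, 12.3%, 8.24%, 8.36% and 0.505%. A match is a match of letters and not a binding site.

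The first question was how the mark at adipokine genes changed from preadipocyte to brown-like adipocyte. All 8 genes that could be tested rose from day 0 to day 9 over both genotypes, by 0.956 kb (Rbp4) to 6.20 kb (Retn), with a median gain of 3.38 kb against 0.0367 kb over all 15983 genes tested. Each passed the exact permutation test within genotypes after Benjamini-Hochberg adjustment over all genes (adjusted p = 0.0188, or 0.0326 for Apln), where 17.5% of all genes were called higher and 16% lower. The smallest p that the 400 relabellings allow is 0.005, and 7 of the 8 genes had it. Lep, with a peak in 1 library, was not tested. With the 20000 strongest peaks of each library 3 calls were left and the Nrg4 difference was -1.28 kb, and with 250 bp on both sides of summits 5 were left. Leaving out any 1 of the 3 DKO day 9 libraries left 7 of the 8 calls, and Apln was then the one not called (exact permutation test, adjusted p = 0.0808 to 0.0815).

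**Figure D1:**
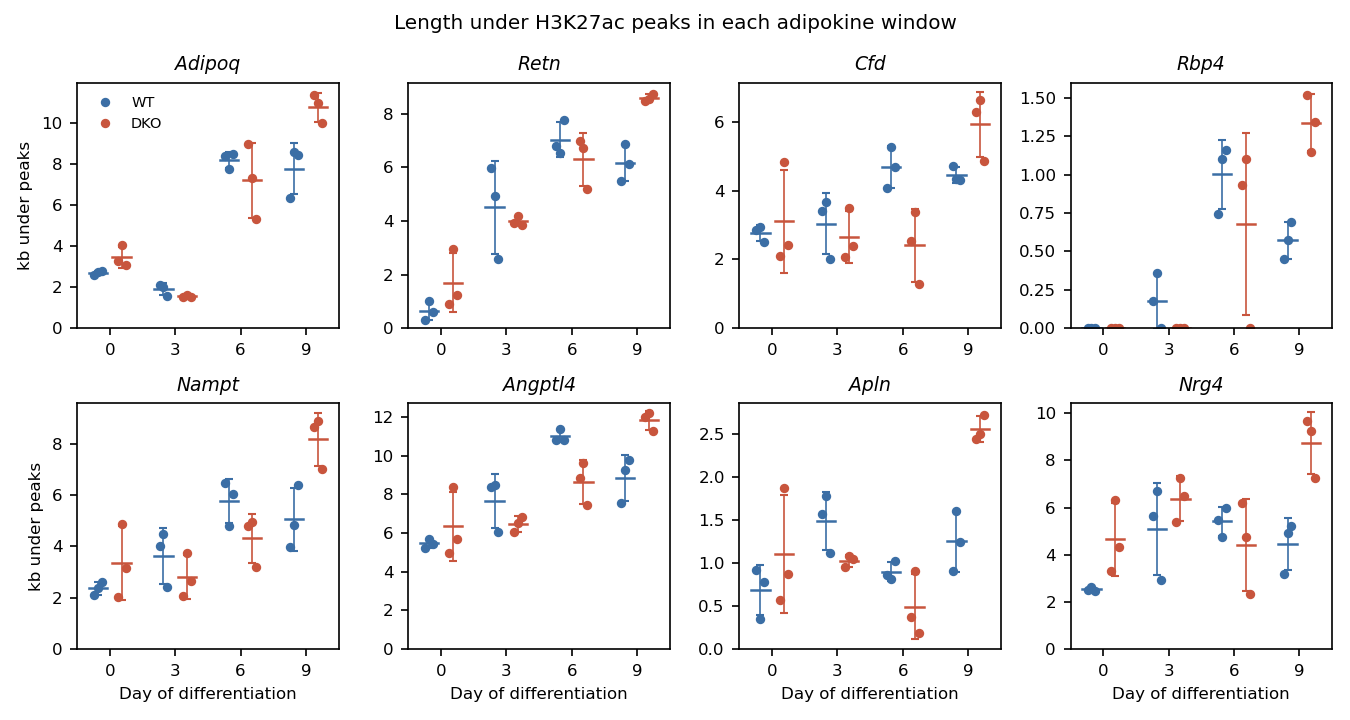
Length under H3K27ac peaks (kb, y axis) in the windows of 8 adipokine genes at each day (x axis) in WT (blue) and DKO (red); points are libraries, and bars show the mean and SD of 3. At day 9 the 3 DKO libraries lie above the 3 WT libraries in all 8 panels, and in most panels both genotypes lie higher at day 9 than at day 0.

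Adipoq encodes adiponectin, an insulin-sensitizing hormone and the most abundant secreted product of fat cells. Its window, chr16:23126536-23158028, held 2.60, 2.75 and 2.77 kb under peaks in WT day 0 replicates 1 to 3 and 3.25, 4.04 and 3.08 kb in DKO. The mark was lower at day 3 in both genotypes, with 2.11, 2.02 and 1.58 kb in WT and 1.53, 1.61 and 1.55 kb in DKO, and none of these libraries reached the day 0 values of its own genotype. At day 6 it stood at 8.38, 7.74 and 8.47 kb in WT and 8.96, 7.32 and 5.34 kb in DKO. At day 9 WT had 6.34, 8.58 and 8.42 kb, and DKO had 11.4, 10.9 and 9.97 kb. All 3 DKO libraries thus lay above all 3 WT libraries at day 9, whereas at day 6 the groups overlapped.

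The Adipoq window is shared. Its strongest region, at -18.6 kb, was called in all 24 libraries and lies at the start of Rfc4, a replication factor gene. Another upstream region, at -10.0 kb, was called in 20 libraries. Over the day 0 libraries of both genotypes, peaks covered 1.47 to 2.09 kb of the Rfc4 region and 1.13 to 1.95 kb of the other. At day 3 these lengths were 1.21 to 1.65 kb and 0 to 0.460 kb. The 2.60 to 4.04 kb present at day 0 was thus not at the Adipoq start. Around Adipoq itself 2 regions appeared with differentiation. The regions at -1.13 and +0.576 kb (chr16:23143737-23146337 and chr16:23146538-23151198) had a peak in 0 of 12 libraries of days 0 and 3 and in 12 of 12 libraries of days 6 and 9. Peaks in the second of them covered 2.77, 3.42 and 3.80 kb in WT at day 9 and 4.62, 4.47 and 4.46 kb in DKO. Its fold was 9.73, 10.7 and 11.1 in WT and 17.6, 11.7 and 14.6 in DKO, so that length and fold of this region were both higher in every DKO library.

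Retn encodes resistin, which in mice is made by adipocytes and counteracts insulin. In WT its window, chr8:3635770-3660110, held 0.316, 1.02 and 0.600 kb under peaks at day 0 and 5.50, 6.87 and 6.13 kb at day 9. In DKO it held 0.898, 2.95 and 1.24 kb at day 0 and 8.46, 8.55 and 8.74 kb at day 9. No day 9 library of either genotype overlapped a day 0 library, and at day 9 no DKO library overlapped a WT library. The strongest peak of the window, in the region at -8.51 kb, had folds of 5.45 to 8.46 in WT at day 0 and of 20.3 to 22.6 at day 9. In DKO the folds were 7.22 to 10.6 at day 0 and 19.7 to 21.7 at day 9, and at day 9 the genotypes overlapped in the fold of this region. The region at the Retn start had a peak in 0 of 6 libraries at day 0 and in 18 of 18 later ones. Its day 9 folds were 7.47, 9.10 and 10.4 in WT and 13.999, 12.3 and 14.96 in DKO, so that here every DKO library lay above every WT library.

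Rbp4 encodes the carrier of retinol in blood. Peaks were absent from its window in all 6 day 0 libraries, and at day 3 2 WT libraries had 0.175 and 0.363 kb while the third WT library and the 3 DKO libraries had none. At day 6 WT held 0.745, 1.10 and 1.16 kb and DKO 0.930, 1.10 and 0 kb. At day 9 WT held 0.450, 0.575 and 0.693 kb and DKO 1.52, 1.15 and 1.35 kb. The 2 main Rbp4 regions lay within 1 kb of its start. By the strongest peak of the window, Rbp4 was the one gene with a higher fold in all 3 DKO libraries at day 9 (7.95 to 9.25 against 5.96 to 7.08 in WT).

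Cfd encodes adipsin, the complement factor D of fat. Its window is the most shared of the set, since the starts of Plppr3, Prtn3 and Elane lie in its upstream 20 kb, and Prtn3 and Elane are proteases of neutrophils. The regions at -16.2, -12.6 and -7.18 kb were called in 23, 24 and 23 libraries, while the 2 regions at the Cfd start (-0.353 and +0.148 kb) were called in 4 and 5 libraries. WT held 4.06, 5.28 and 4.69 kb under peaks at day 6 and DKO 2.54, 3.38 and 1.29 kb. At day 9 this order was turned, with 4.72, 4.35 and 4.30 kb in WT and 6.28, 6.63 and 4.87 kb in DKO. The groups did not overlap on either day.

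Nampt encodes visfatin, which is also the enzyme that limits NAD synthesis by salvage. Its 2 regions near the start, at +0.292 and +1.48 kb, were called in all 24 libraries, with folds of 9.22 to 28.3. Covered length was 2.1, 2.39 and 2.60 kb in WT at day 0 and 3.97, 4.81 and 6.38 kb at day 9. In DKO it was 2.04, 4.89 and 3.16 kb at day 0, where the middle value is the library with wide peaks, and 8.66, 8.87 and 6.99 kb at day 9. The lowest DKO library at day 9 lay 0.612 kb above the highest WT library.

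Angptl4 encodes an inhibitor of lipoprotein lipase and is a known target of PPARs and glucocorticoids. A region of 11.5 kb over the gene was called in all 24 libraries, and its window had the largest share under peaks of the set at every day in the mean of either genotype. WT held 10.8, 11.4 and 10.8 kb at day 6 and DKO 8.86, 9.64 and 7.44 kb. At day 9 WT held 7.54, 9.25 and 9.80 kb and DKO 12.01, 12.2 and 11.3 kb. As at Cfd, the groups were apart on both days and in opposite order.

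Apln encodes apelin, a peptide of fat and vessels, on the X chromosome. Its mark was low, at 0.184 to 2.73 kb over the 24 libraries. Of these genes, only Apln had less at day 6 than at day 3 without overlap in both genotypes (0.813 to 1.03 kb after 1.12 to 1.78 kb in WT, 0.184 to 0.914 kb after 0.952 to 1.08 kb in DKO). In DKO the means of Cfd (2.41 after 2.66 kb) and Nrg4 (4.42 after 6.38 kb) were lower at day 6 too, with overlap. The median change over all genes was -0.0573 kb in DKO and 0.353 kb in WT. At day 9 WT held 0.907, 1.61 and 1.25 kb and DKO 2.45, 2.51 and 2.73 kb. The region called in all 24 libraries lies 19.6 kb upstream, at the edge of the window, and that at +0.486 kb was called in 11 WT and 8 DKO libraries.

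Nrg4 encodes neuregulin 4, a growth factor of brown fat that acts on ERBB4 in liver. Its gene is the longest of the set, so its window spans 127 kb, and regions at +17.4, +30.8 and +71.2 kb, all in introns, were called in all 24 libraries. WT held 2.50, 2.62 and 2.45 kb at day 0 and DKO 3.31, 6.33 and 4.31 kb. At day 9 WT held 3.20, 4.92 and 5.24 kb and DKO 9.68, 9.26 and 7.24 kb. The groups were apart on both days. Leaving out the wide DKO day 0 replicate 2 could not change this, since it holds the highest day 0 value. A region of 0.442 kb at +80.0 kb (chr9:55246659-55247100) had a peak in 0 of 12 WT libraries and in 6 DKO libraries, the 3 of day 6 and the 3 of day 9. The nearest start of a coding gene to that region is that of Fbxo22, not of Nrg4. The same holds for the regions at +71.2 and +76.1 kb. Tmem266 starts at chr9:55326913 on the opposite strand, beside the Nrg4 start at chr9:55326844, so this window is shared as well.

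Lep, the gene of leptin, which signals energy stores to the brain, had no peak in 23 of 24 libraries. The exception was WT day 3 replicate 3, with 0.557 kb in 2 regions, at +4.38 kb in an intron and at +12.7 kb in an exon, with folds of 16.8 and 9.10. That library was the one with the shallow background, and it had 586 peaks of at least the lower of these folds in regions that no other library called, where each of the other 23 had 0 to 1 such peaks. The other 2 WT day 3 libraries had none at Lep. A peak list holds only what passed the q-value threshold, so weaker mark at Lep in the other libraries was not detectable at this depth.

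Per length of window, the 8 genes covered a wide range of shares. At day 9 in WT, peaks covered 31.6% ± 4.21 of the Angptl4 window (SD, n = 3), 25.3% ± 2.82 of Retn, 24.7% ± 3.97 of Adipoq and 20.4% ± 1.05 of Cfd. Then came Nampt with 9.39% ± 2.28, Apln with 4.22% ± 1.2, Nrg4 with 3.51% ± 0.867 and Rbp4 with 1.999% ± 0.424. In DKO the shares were 42.1% ± 1.77, 35.3% ± 0.573, 34.2% ± 2.26 and 27.2% ± 4.30 for the first 4, and 15.2% ± 1.91, 8.63% ± 0.499, 6.89% ± 1.03 and 4.67% ± 0.648 for the others. Retn and Adipoq did not differ beyond their SD in either genotype, nor did Apln and Nrg4 in WT.

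The second question was whether the loss of HMGN1 and HMGN2 changed the mark at these genes. At day 9 all 8 tested genes had more kb under peaks in every DKO library than in any WT library, where 31.5% of the 16206 genes tested did so. The differences ran from 0.766 kb (Rbp4) to 4.28 kb (Nrg4), or 1.33 to 2.34 times the WT mean, with a median of 2.69 kb against 0.295 kb over all genes. With 3 libraries against 3 an exact permutation test of one day cannot give less than p = 0.1, which each of the 8 genes had. This is therefore a description, and the genes were chosen with earlier results of these data known. Per Mb under peaks of the library, a scaling that takes out the greater total of the DKO lists, 7 of the 8 genes still lay above WT without overlap (Cfd did not) and none below, where 14.5% of all genes lay above and 13.8% below. The count was 8 whichever of the day 9 libraries was left out, as it had to be. Leaving out a library cannot make groups overlap that were apart. With the 20000 strongest peaks of each library the count was 4, and with each peak replaced by its summit and 250 bp on both sides it was 3. The shares of all genes under these settings are not given here.

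**Figure D2:**
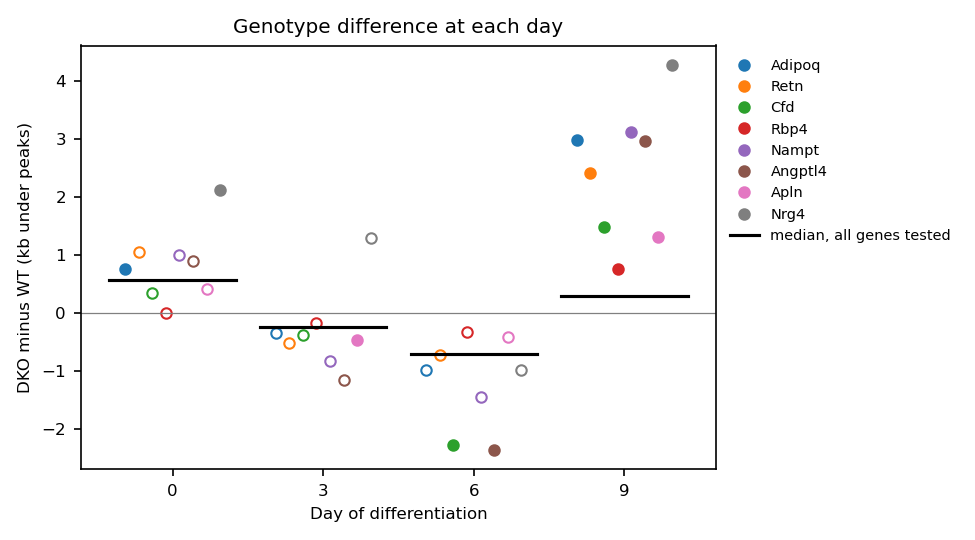
DKO minus WT difference in mean length under peaks (kb, y axis) at each day (x axis) for 8 adipokine genes; filled points are genes whose 3 DKO and 3 WT libraries do not overlap, and black lines are the median over all 16206 genes tested. At day 9 all 8 points are filled and lie above the black line, from 0.766 to 4.28 kb.

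The strongest peak of the window did not show the same pattern at day 9. Its fold was higher in all DKO libraries at 1 of 8 genes (Rbp4) and lower at none, where 22.1% of all genes with a peak in the 6 libraries were higher and 8.15% lower. At Adipoq it was 18.3, 19.0 and 22.6 in WT and 21.9, 11.9 and 20.6 in DKO. At Retn it was 20.3, 22.6 and 21.7 in WT and 21.7, 19.9 and 19.7 in DKO. For Adipoq this is the peak at the Rfc4 start, and for Retn the peak at -8.51 kb. Region by region the picture was wider: of 24 regions of the windows with a peak in all 6 day 9 libraries, 9 had a higher fold in every DKO library and 1 a lower one, where 18.4% and 8.95% of such regions in the genome did. The 9 were Adipoq at -1.13 and +0.576 kb, the Retn start region, both Rbp4 regions near its start, Apln at +0.486 kb, and Nrg4 at +76.1, +17.4 and +0.379 kb. The 1 lower was Nampt at +0.292 kb (10.03 to 14.7 against 18.95 to 25.1 in WT). On the other days the counts higher and lower were 3 and 0 of 12 at day 0 (12% and 10.1% in the genome), 0 and 4 of 14 at day 3 (3.52% and 26%) and 0 and 6 of 16 at day 6 (1.8% and 44.7%).

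At day 6 the means of all 8 genes were lower in DKO, and 2 (Cfd and Angptl4) were so without overlap, where 63.9% of all genes were and 0.0864% lay above. The difference was -2.27 kb at Cfd and -2.36 kb at Angptl4, and the median over the 8 was -0.988 kb against -0.710 kb over all genes. The count was 4 without DKO day 6 replicate 1 or replicate 2. Leaving out a library can raise such a count but not lower it, and the matching share of all genes is not given here. Per Mb under peaks this order turned: 5 genes (Adipoq, Retn, Nampt, Angptl4 and Nrg4) lay above WT without overlap and none below, beside 38% of all genes above and 15.3% below. The fold of the strongest peak was lower in DKO without overlap at Adipoq (13.4 to 15.2 against 25.2 to 28.9), Nampt (13.5 to 19.8 against 21.7 to 26.8) and Angptl4 (13.4 to 22.8 against 26.3 to 32.8), and higher at none of the 7 genes with a peak in all 6 libraries. Over all genes 48.7% were lower and 0.886% higher in fold, and the Adipoq value is that of the peak at the Rfc4 start.

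**Figure D3:**
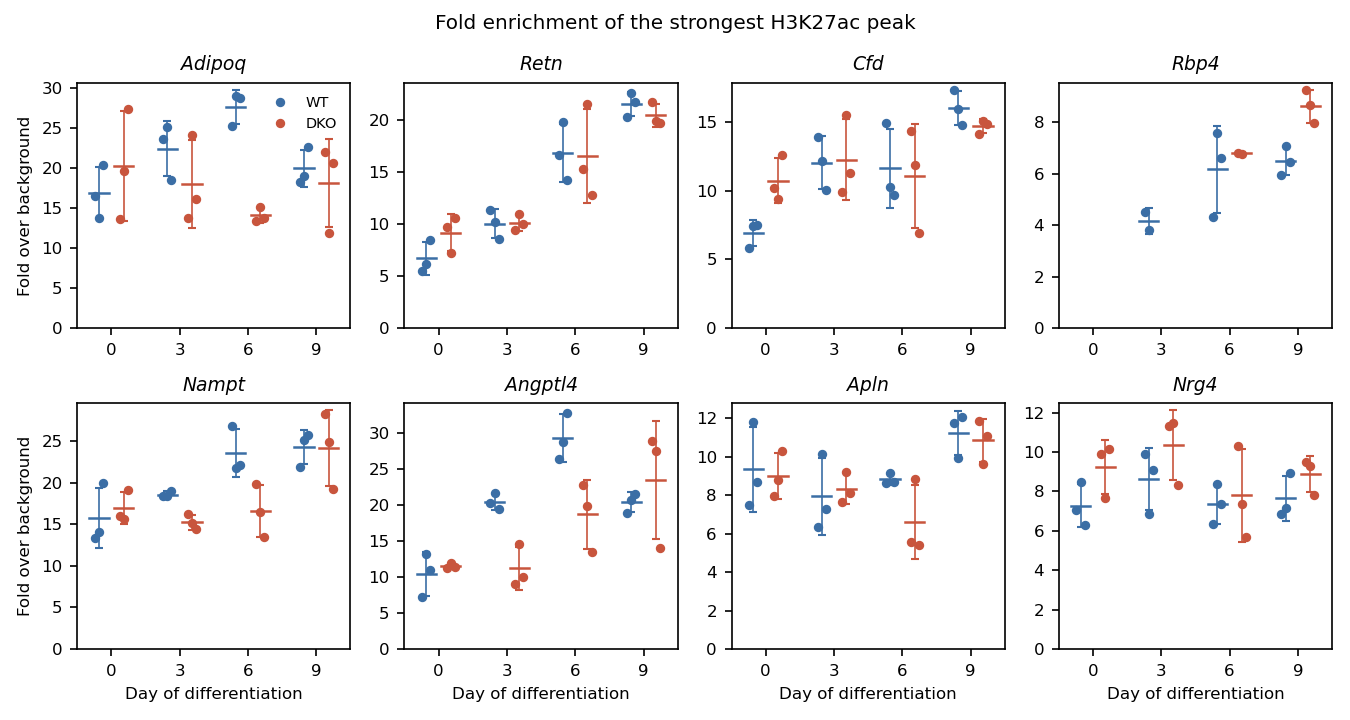
Fold enrichment of the strongest peak (y axis) in the windows of 8 adipokine genes at each day (x axis) in WT (blue) and DKO (red); points are libraries with a peak, bars the mean and SD where at least 2 had one. At day 6 the DKO points of Adipoq, Nampt and Angptl4 lie below all WT points, and at day 9 the genotypes overlap in all panels except Rbp4.

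At day 0, 2 genes (Adipoq and Nrg4) lay higher in DKO without overlap, where 19.8% of all genes did, and none lay lower (0.697%). Without DKO day 0 replicate 2, the library with wide peaks, Cfd lay lower by 0.514 kb. The same 2 genes lay higher, but groups that are apart stay apart when a library is left out. The share of all genes without this library is not given here. Per Mb under peaks, Retn and Nrg4 lay higher and none lower, where 12.2% and 11.2% of all genes did. Fold was higher in DKO without overlap at Cfd (9.39 to 12.6 against 5.79 to 7.51) and lower at none of 7 genes, beside 12.3% and 8.85%.

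At day 3, Apln was lower in DKO without overlap by 0.463 kb, and no gene was higher, beside 10.4% and 0.611% of all genes. Without WT day 3 replicate 3, the library with the shallow background, 6 genes lay lower (Adipoq, Retn, Rbp4, Nampt, Angptl4 and Apln) and none higher, beside 55.1% and 0.66% of all genes. Per Mb under peaks, Cfd and Nrg4 lay higher and none lower, beside 12.8% and 8.11%. Fold was lower without overlap at Nampt (14.4 to 16.2 against 18.3 to 19.0) and Angptl4 (9.06 to 14.6 against 19.5 to 21.7) and higher at none, beside 27.3% and 3.46%.

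In covered kb, the time courses of the genotypes differed at each step. From day 0 to day 3, Retn rose without overlap in both genotypes, and Angptl4, Apln and Nrg4 in WT alone, while Adipoq fell in both. Of all genes, 6.94% rose without overlap in WT at this step and 1.34% in DKO. The wide DKO day 0 library and the shallow WT day 3 library enter this step. At day 6, 6 of 8 genes lay above their day 3 length without overlap in WT, where 36.6% of all genes did, and 3 (Adipoq, Retn and Angptl4) in DKO, where 8.28% did. At day 9 all 8 lay above their day 6 length without overlap in DKO, but so did 76.4% of all genes, while in WT none did, beside 11% of all genes, and Rbp4 and Angptl4 lay lower without overlap, beside 16.3%. Neighbouring steps share a day, as the last DKO steps share DKO day 6, so they are not independent of each other. Per Mb under peaks, the DKO mean was lower at day 9 than at day 6 at Adipoq (0.167 after 0.238 kb per Mb) and Retn (0.133 after 0.211). It was also lower at Angptl4 (0.184 after 0.292), Nampt (0.127 after 0.142) and Nrg4 (0.135 after 0.139). It was higher at Cfd (0.0917 after 0.0758), Rbp4 (0.0207 after 0.0189) and Apln (0.0399 after 0.0149).

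Over all 4 days, none of the 8 genes was called for a DKO minus WT difference in covered kb (exact permutation test within days, Benjamini-Hochberg adjusted p of 0.377 to 1). Nrg4 was the one with an unadjusted p under 0.05 (1.68 kb higher, exact p = 0.0206). Over all genes, 1641 had such a p, and 25 passed the adjustment, 5 of them higher (0.0309%) and 20 lower (0.123%). Per Mb under peaks, where 1876 genes were called higher and 1080 lower, the exact permutation test called 4 of the 8 higher in DKO, Nrg4 (adjusted p = 0.00132), Retn (0.00778), Adipoq (0.0226) and Nampt (0.0303). Kb and kb per Mb thus gave different answers here, and the lists hold no outside standard to choose between them.

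Whether the genotype difference changed with the day was tested by the spread of the 4 daily differences. In an exact permutation test 4 of the 8 genes passed after adjustment, Angptl4 (adjusted p = 0.0253), Apln (0.0443), Nampt (0.0463) and Cfd (0.0494), beside 23.4% of all genes. The null of this exact permutation test is no difference on any day. These calls lay near the threshold: with 1 library left out the count ran from 0 to 6, and for most libraries it was at most 2. It was 0 without any 1 of the 3 WT day 0 libraries and 2 without DKO day 0 replicate 2. Per Mb under peaks none of the 8 was called.

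By the place of the strongest peak in its own library, none of the 8 genes differed between genotypes over the 4 days (adjusted p of 0.243 to 0.863, and 0 genes with an unadjusted p under 0.05 in the exact permutation test). In this test a window with no peak was given the weakest place of its list. For Rbp4, with a peak in 13 of 24 libraries, the test thus also compared the absence of peaks. Over all genes, 3.51% were called with a higher percentile, that is a weaker place, in DKO, and 0.173% with a lower one. Retn moved from the 17.4th to 57.7th percentile at day 0 to the 1.37th to 2.11th at day 9 over both genotypes. At Adipoq the percentile was 0.569 to 6.56 in all 24 libraries, and this was the peak at the Rfc4 start.

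Regions gave a finer view of the day 9 difference. Of the 95 regions in the windows, 39 were called in 3 to 21 libraries and could be tested for genotype over the 4 days. None passed the adjustment in the exact conditional test, as none of 71228 regions did (smallest adjusted p = 0.111). Before adjustment 2 regions favoured DKO in this exact test, the Nrg4 region at +80.0 kb (p = 0.005) and a Retn region at -11.7 kb (5 DKO and 0 WT libraries, p = 0.02), and 0 favoured WT. Over all regions 0.456% were more frequent in DKO and 4.82% in WT at that level.

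At day 9, 9 of 40 regions called in at least 3 of the 6 libraries had a peak in 3 of 3 DKO and 0 of 3 WT libraries, where 4.09% of such regions in the genome did, and 0 were in WT alone, where 1.08% were. These 9 were Adipoq at -16.5, -15.7 and +5.34 kb, Retn at -11.7 kb, Cfd at -10.1 kb, Nampt at +6.88 and +8.67 kb, Angptl4 at -16.5 kb and Nrg4 at +80.0 kb. They were short and weak, 0.434 to 1.31 kb long with folds of at most 8.18 in any library. The Adipoq, Nampt and Angptl4 regions among them also had a peak in 1 to 4 WT libraries each, at days 3 or 6. Those of Retn, Cfd and Nrg4 had a peak in 0 WT libraries. The nearest coding gene was Rfc4 for Adipoq at -16.5 and -15.7 kb and Elane for Cfd at -10.1 kb. It was Kank3 for Angptl4 at -16.5 kb and Fbxo22 for Nrg4 at +80.0 kb. At day 6, 1 of 30 was in DKO alone (Nrg4 at +80.0 kb, beside 0.141%) and 0 in WT alone (16.5%). At day 3, 1 of 19 was in WT alone (Apln at -0.290 kb, beside 3.78%) and 0 in DKO alone (0.411%), and at day 0 there were 0 of 17 of either kind (1.95% in WT alone and 2.45% in DKO alone).

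**Figure D4:**
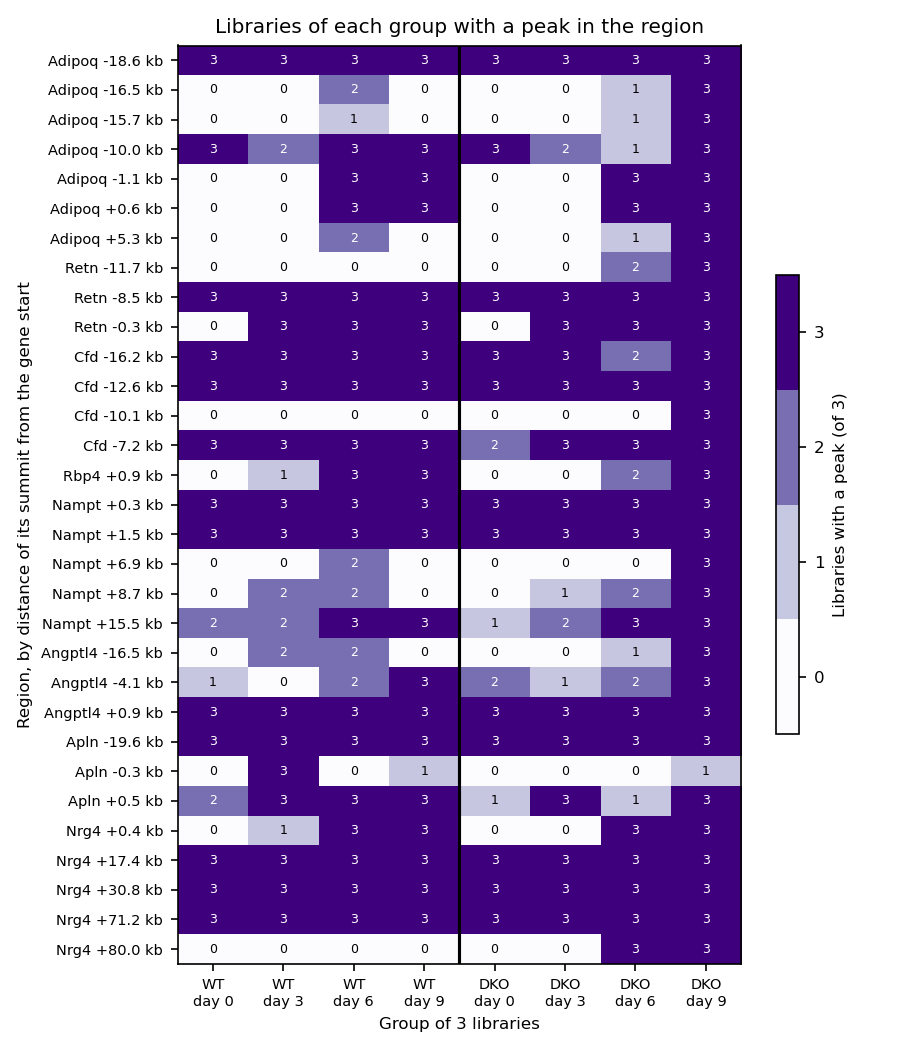
Number of libraries with a peak (0 to 3, shade and figure) in each group (x axis) for regions of 8 adipokine windows called in at least 12 libraries or in 3 of 3 against 0 of 3 libraries of the genotypes at a day; regions are named by gene and distance of the summit from the gene start in kb. At day 9, 9 regions read 3 in DKO and 0 in WT, and the Nrg4 region at +80.0 kb does so at day 6 too.

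The summed length under peaks of the 10 adipocyte markers moved with the adipokine genes. At day 9 it was 106 to 127 kb in the WT libraries, below the 167 to 177 kb of the DKO libraries. At day 6 the WT range was 140 to 150 kb and the DKO range 94.8 to 141 kb, and at day 0 they were 23.1 to 27.3 kb and 28.6 to 63.95 kb. The 10 preadipocyte markers gave sums at day 9 of 60.9 to 72.5 kb for WT and of 61.2 to 69.5 kb for DKO. At day 6 their sums were 58.8 to 64.2 kb for WT and 14.6 to 24.6 kb for DKO, which do not overlap. The 8 immune markers gave 17.3 to 20.7 kb for WT and 22.4 to 25.4 kb for DKO at day 9. Their day 0 sums were 45.1 to 50.4 kb for WT and 57.7 to 106 kb for DKO. The 4 endothelial markers gave 3.59 to 5.33 kb for WT and 4.78 to 7.71 kb for DKO at day 9, and 3.99 to 4.13 kb and 1.17 to 2.38 kb at day 6. The part of any of these in the results above was not tested.

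Other genes of the same biology moved in both directions. Of 27 tested genes for other secreted factors of fat, 5 rose and 5 fell from day 0 to day 9 (median 0.0743 kb), near the shares of all genes given above (17.5% and 16%). Fgf10, Vegfa and Lcn2, which encode growth factors of adipose tissue and vessels and a lipocalin, gained 3.70, 3.31 and 2.85 kb. Metrnl, Ccl2 and Angptl2, a browning hormone, a chemokine and an angiopoietin-like protein, fell by 9.73 kb, fell by 7.86 kb and fell by 7.11 kb. At day 9, 13 of the 27 lay higher in DKO without overlap and 1 lower (31.5% and 1.91% of all genes), and at day 6, 20 lay lower and 0 higher (63.9% and 0.0864%). None was called for genotype over the 4 days (2 with an unadjusted p under 0.05), and 10 for a difference that changes with the day (23.4% of all genes).

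Among 10 tested genes for receptors of these hormones, 3 rose and 2 fell from day 0 to day 9, beside 17.5% and 16% of all genes. The adiponectin receptor gene Adipor2 gained 19.5 kb (WT means of 2.63 kb at day 0 and 18.7 kb at day 9, DKO means of 3.95 and 26.8 kb), and the insulin receptor gene Insr gained 15.4 kb and Cdh13, an adiponectin-binding cadherin, 1.09 kb. Cap1, proposed as a resistin receptor, fell by 11.97 kb, and Stra6l, the retinol carrier receptor also called Rbpr2, by 1.63 kb. Of 10 genes for secretion and processing, 3 rose and 1 fell, beside the same shares of all genes. Lpl, the lipase that ANGPTL4 inhibits, rose by 12.8 kb, Pcsk5 by 3.19 kb and Sel1l by 0.406 kb, while Furin fell by 1.59 kb. At day 9, 4 of 11 tested receptor genes and 5 of 10 secretion genes lay higher in DKO without overlap and none lower (31.5% and 1.91% of all genes). At day 6, 6 of each list lay lower and none higher (63.9% and 0.0864%). None of either list was called for genotype over the 4 days (1 of each had an unadjusted p under 0.05).

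The genes whose length under peaks ranked most like that of a member over the 24 libraries were found without regard to function, among genes whose windows do not overlap it. For Adipoq they were Ywhab (Spearman's rho 0.98) and Crat (0.97), for Retn Arl4a (0.98) and Aspg (0.97), for Angptl4 Megf9 (0.98) and Insr (0.97), and for Nampt Ehd2 and Cables1 (both 0.96). For Cfd they were Nt5c3 and Tmem241 (both 0.95), for Rbp4 Tenm4 and Dct (both 0.94), for Nrg4 Chid1 (0.92) and Xrn2 (0.90), and for Apln Abat (0.87) and Nt5e (0.83). Among the members, rho ran from 0.18 (Adipoq and Apln) to 0.94 (Nampt and Angptl4). The 24 points share libraries, and so share the total length under peaks.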

How the data were processed

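H3K27ac ChIP-seq libraries (75 bp single reads) were processed by the authors with bcl2fastq 2.17, cutadapt 1.18, BWA (given as 07.17) and MACS2 2.1.1.20160309 on mm10, per the labels. The deposited peak list of each of the 24 libraries gives a linear fold ratio over local background and -log10 p and -log10 q values. The calling options and the control of each list are not given in the sources used here, and 16 input libraries were not used. Gene spans came from GENCODE M21. For each gene the kb under peaks, the fold of the strongest peak and its q-value percentile were computed (Python 3.11.15, numpy 2.4.6, scipy 1.17.1) in the span plus 20 kb upstream. A gene was tested where at least 3 libraries had a peak. Exact two-sided permutation tests relabelled libraries within days (160000 relabellings, smallest p 1.25e-05) or within genotypes (400), with Benjamini-Hochberg adjustment over all genes tested at 0.05. Regions called in 3 to 21 libraries were tested by an exact conditional test. No count test was run, since the lists hold no counts for uncalled windows. The read depth is unknown apart from the background reads per kb recovered from fold and p, which came out whole (tolerance 0.005 in log10 p) for 100% of peaks in 23 libraries. Scripts were tested on simulated data. All 9 genes were named by the list itself. The genes and lists were chosen with earlier results of these data known, and regions named for their values were picked after those were seen. Alternatives were stricter peaks (-log10 q of at least 5), the 20000 strongest peaks, a 5 kb upstream window, 250 bp either side of summits, kb per Mb under peaks, left-out libraries and a replicate block. The sequences of the other regions are not reported here.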

Additional observations from a re-analysis of the deposited data

Results flagged for a closer look

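A difference between genotypes that changed with the day was called at 4 genes. The adjusted p of the exact permutation test on the spread of the 4 daily differences was 0.0253 for Angptl4, 0.0443 for Apln, 0.0463 for Nampt and 0.0494 for Cfd. DKO minus WT at days 0, 3, 6 and 9 was 0.888, -1.16, -2.36 and 2.97 kb for Angptl4. For Apln it was 0.421, -0.463, -0.409 and 1.31 kb, for Nampt 0.997, -0.830, -1.45 and 3.12 kb, and for Cfd 0.344, -0.375, -2.27 and 1.47 kb. The total length under peaks of the DKO lists was likewise below that of WT at day 6 and above it at day 9, and its part in these calls was not tested.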

How the results depend on the processing

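The 4-day genotype difference in covered kb was called at 0 of the 8 genes, and at 4 with kb per Mb under peaks. The 8 calls for day 9 against day 0 became 3 with the 20000 strongest peaks and 5 with 250 bp either side of summits, and ran from 7 to 8 with 1 library left out. With the replicate number as a block there were 0 (smallest p 0.03125, smallest adjusted p = 0.0954), since the exact test then has 64 relabellings. Over 18 pairs of same-numbered libraries, the correlations of their deviations ran from -0.818 to 0.886, with 7 of them over 0.1. In 6 of the 18 pairs the library correlated best with its own number. With 3 libraries in each group, these values cannot tell whether the numbers pair the libraries. Leaving out a whole replicate number left day 9 against day 0 with a smallest p of 0.0556, which cannot pass. The 4 calls for a difference that changes with the day became 1 with -log10 q of at least 5, and 0 with the 20000 strongest peaks, with 250 bp around summits and per Mb, and ran from 0 to 6 with libraries left out. The 2 genes lower in DKO at day 6 became 1 with 250 bp around summits and 0 per Mb. Their count ran from 2 to 4 with 1 library left out, and from 2 to 5 with a whole replicate number left out. Such a count can rise but not fall when libraries are left out. The 8 higher at day 9 became 4 with the 20000 strongest peaks and 3 with 250 bp around summits. No q percentile or region call was made under any setting run. Of 87 values of the 4-day kb difference of single genes under these settings, 16 had the opposite sign (Angptl4 kept its sign in 5 of 11, Cfd in 7 of 11, Rbp4 in 8 of 10), as did 1 of 87 for day 9 against day 0 and 4 of 71 for the percentile. Where the value was past an unadjusted p of 0.05 or the gene had been called, the opposite signs were those of Cfd over the 4 days with the 20000 strongest peaks (0.527 kb), of Nrg4 at day 9 against day 0 with the same peaks (-1.28 kb), and of the Adipoq percentile with a 5 kb window (-3.36). The cause of these changes was not tested.

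Over all genes, the 25 calls for genotype became 6 with -log10 q of at least 5, 15 with the 20000 strongest peaks, 200 with 250 bp around summits, 2956 per Mb (1876 higher, 1080 lower, against 5 and 20), 263 without DKO day 0 replicate 2, 53 without WT day 3 replicate 3, 9 without DKO day 3 replicate 2, 0 without DKO day 3 replicate 1 or replicate 3, and 0 with the block. The 5361 calls for day 9 against day 0 (2800 higher, 2561 lower) became 1533 with the 20000 strongest peaks, 3417 with 250 bp around summits (2425 higher, 992 lower), 8043 per Mb, 8082 without DKO day 0 replicate 2 (5497 higher, 2585 lower) and 0 with the block. The 597 calls by percentile became 182 with the 20000 strongest peaks and 0 with the block. The 3794 calls for a difference that changes with the day became 22 per Mb and 0 with the 20000 strongest peaks or 250 bp around summits, and ran from 0 (without any 1 WT day 0 library) to 8498 (without DKO day 0 replicate 1). Leaving out each library in turn, other than DKO day 0 replicate 2 and WT day 3 replicate 3, was chosen after seeing the data, as were the day 3 counts without WT day 3 replicate 3 and the fold by region.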
